A study of Mus musculus with 18 samples.

Results

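The tibialis anterior (TA), a fast muscle of the shin, was compared between a transplanted and a genetic mouse model of cancer cachexia, by asking for each gene whether its change in muscle differed between them. The comparison used 8 of the 18 poly(A) RNA-seq libraries in the series, 2 from each of 4 groups, and the labels call the 2 biological replicates. KPC tumour mice had received 50000 KPC cells orthotopically, and their Matrigel controls had received Matrigel without cells. KPP tumour mice belonged to a genetic model in which tumours were induced with tamoxifen, and KPP controls were mice of that model recorded as free of tumour. All 4 groups were on a C57BL/6 background, and the series describes tumour-bearing mice at endpoint. Ages, the alleles behind the abbreviations and whether the KPP controls also received tamoxifen were not given in the sources used here. The labels name the injected cells only as KPC. The route by which the tumour arose, the tumour genotype and the control group all differ together between the experiments and cannot be told apart.

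The KPC effect is the log2 ratio of KPC tumour to Matrigel control libraries, and the KPP effect that of KPP tumour to KPP control libraries. The difference of effects is the KPC effect minus the KPP effect, so a positive value means a higher ratio with KPC. A gene is called when its adjusted p is under 0.05 by edgeR's quasi-likelihood test (two-sided) with Benjamini-Hochberg adjustment over all 16096 genes tested. Every ± after a log2 value is a standard error worked back from that test. It is the absolute log2 value divided by the square root of the F statistic. Each group had n = 2 libraries, and the spread was estimated over all 18 libraries in 9 groups, other tumour models included. Levels are CPM, the counts of a gene scaled to libraries of a common normalised size.

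Cachexia is the loss of muscle and fat that accompanies many cancers, and pancreatic tumours are among its most frequent causes. In wasting muscle, FoxO factors and glucocorticoid receptors raise the genes of the ubiquitin ligases atrogin-1 and MuRF1, which mark sarcomere proteins for the proteasome, while matrix production falls. A whole muscle also holds fat cells, vessels, nerve sheaths and immune cells, so its RNA records these too. In such bulk samples, fewer cells of a type and less RNA per cell cannot be told apart.

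The 8 libraries held 23320827 to 36673780 fragments, and replicate libraries correlated at 0.959 to 0.983 over all genes. Fast myofibre genes summed to 201900 to 263700 CPM and slow myofibre genes to 4487 to 9073 CPM. Mitochondrially encoded transcripts made up 13.7 and 15.3% of fragments in KPC tumour libraries, 17.6 and 20.2% in Matrigel controls, 11.8 and 10.4% in KPP tumour libraries, and 17.5 and 22.4% in KPP controls. Single libraries stood apart in some markers. KPP control replicate 1 alone had the epithelial genes Epcam and Cdh1 at 3.96 and 4.74 CPM, with at most 0.25 CPM in each of the other 7 libraries. KPP tumour replicate 1 had 3250 summed CPM of erythroid markers, against 489.5 in its partner. Between the controls, Matrigel minus KPP, edgeR called 0 of 16096 genes, although 1053 (6.54%) had an unadjusted p under 0.05 and DESeq2 called 55 (0.342%). Between the tumour groups, KPC minus KPP, 2352 genes were called (14.6%). Leaving out KPP control replicate 2 gave 114 calls between the controls, and leaving out KPC tumour replicate 2 or KPP tumour replicate 1 gave 122 and 1445 between the tumour groups.

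The models shared much of their response. With KPC tumours 2468 genes rose (15.3% of those tested) and 2210 fell (13.7%), and with KPP tumours 2805 rose (17.4%) and 3107 fell (19.3%). Called in the same direction in both were 2963 genes (18.4%), 1513 higher (9.4%) and 1450 lower (9.01%), which is 63.3% of the KPC calls and 50.1% of the KPP calls. Of the 1683 genes called with KPC alone 83.4% had the same sign with KPP. Of the 2917 called with KPP alone 83.3% had the same sign with KPC. These shares compare with 75.6% of all genes tested, called or not, that had the same sign in both. Across all genes, which are not independent replicates, the effects had a Pearson correlation of 0.497 and a Spearman correlation of 0.629. Neither model shares a library with the other in this comparison. Among genes higher in both, the median effect was 1.01 with KPC and 1.20 with KPP, and among genes lower in both it was -1.36 with KPC and -1.53 with KPP. The KPP effect was the larger for 863 of the 1513 and 896 of the 1450. Leaving out KPC tumour replicate 2, Matrigel control replicate 1 or Matrigel control replicate 2 gave 2325, 2575 and 1925 KPC calls and 1905, 1744 and 1443 in both, and leaving out KPP control replicate 1 gave 3193 KPP calls.

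**Figure D1:**
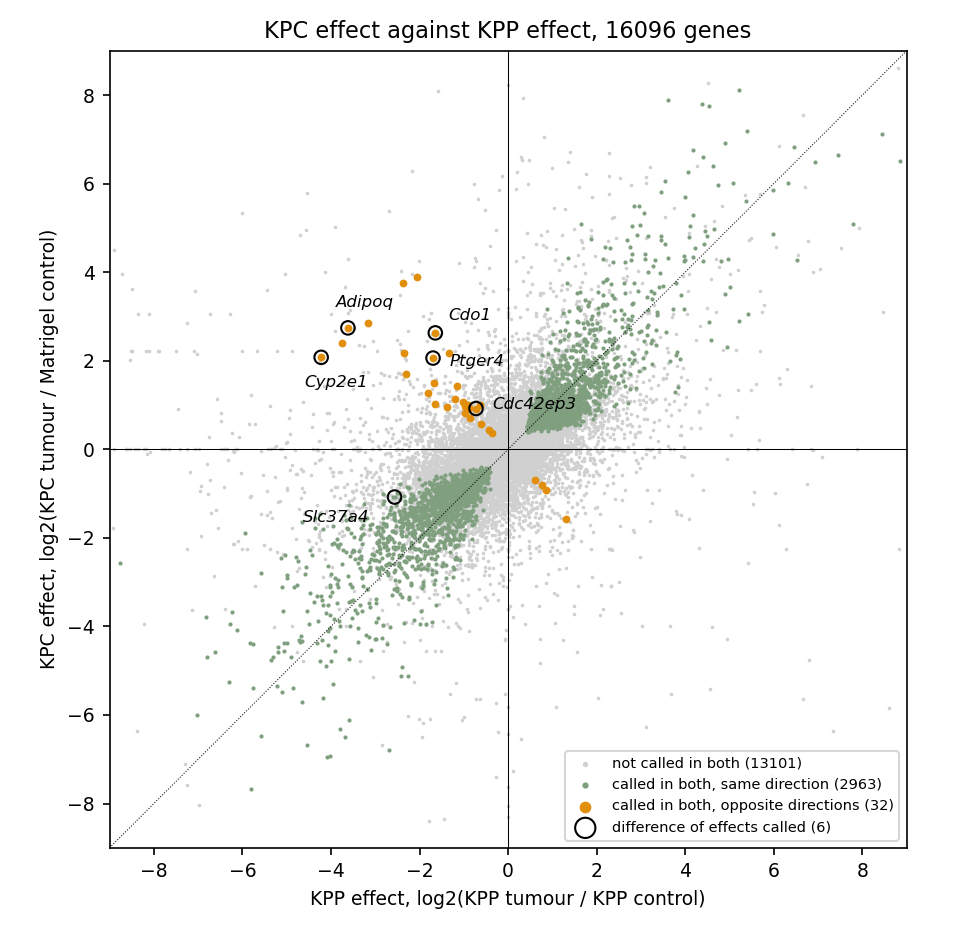
KPC effect (vertical, log2 of KPC tumour over Matrigel control) against KPP effect (horizontal, log2 of KPP tumour over KPP control), 1 point per gene for 16096 genes, of which 30 lie beyond the plotted range of ±9. Most genes called in both lie near the dotted line of equal effects, 32 lie in the opposite quadrants, and black circles mark the 6 genes whose difference of effects was called, 5 of them in the upper left.

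The difference of effects was called for 6 genes (0.0373%), each with a higher ratio with KPC, and for 0 genes in the other direction. An unadjusted p under 0.05 was found for 2556 genes (15.9%), 1490 positive (9.26%) and 1066 negative (6.62%). DESeq2 called 401 genes (2.49%), 268 higher (1.67%) and 133 lower (0.826%), and its calls held all 6. Of the 401, 151 had a ratio above 1 with KPC and below 1 with KPP, 59 the reverse, 60 had the same sign in both with the larger size with KPC and 131 the same sign with the larger size with KPP. The median over all genes was 0.01, and 50.9% of genes had a positive value. The edgeR count rests on few libraries. It was 0 without KPC tumour replicate 2, KPP control replicate 1 or either Matrigel control, 2 without KPP tumour replicate 2, neither of them among the 6, 26 without KPP control replicate 2, 136 without KPP tumour replicate 1 and 858 without KPC tumour replicate 1.

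Adipoq, which encodes adiponectin, the hormone secreted by fat cells, is on chromosome 16 (23146536 to 23158028, plus strand, build mm10). It had 5.15 and 1.53 CPM in KPC tumour libraries and 0.584 and 0.409 CPM in Matrigel controls, and 0.578 and 0.636 CPM in KPP tumour libraries against 8.14 and 6.89 CPM in KPP controls. KPC tumour and KPP control libraries were high, Matrigel control and KPP tumour libraries were low, and neither pair of groups overlapped. The gene rose with KPC (2.74 ± 0.71) and fell with KPP (-3.62 ± 0.71), a difference of 6.36 ± 1.00 (adjusted p = 0.0456, edgeR). The counts behind it were 12 to 230 per library, and the KPC call alone was lost without KPC tumour replicate 1 or either Matrigel control (adjusted p up to 0.117). Cyp2e1, the ethanol-inducible cytochrome P450 of liver and fat, lies on chromosome 7 (140763739 to 140774987, plus strand). Its levels were 5.39 and 5.36 CPM in KPC tumour libraries and 1.72 and 0.819 CPM in Matrigel controls, and 0.784 and 0.575 CPM in KPP tumour libraries against 20.3 and 4.84 CPM in KPP controls. KPP control replicate 1 stood about 4-fold above its partner, yet both KPP controls lay above both KPP tumour libraries. Cyp2e1 rose with KPC (2.08 ± 0.60) and fell with KPP (-4.22 ± 0.66), a difference of 6.30 ± 0.89 (adjusted p = 0.0290). The difference stayed between 4.92 and 6.92 with each library left out, while the KPC call was lost without KPC tumour replicate 2 or Matrigel control replicate 2 (adjusted p up to 0.172).

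Cdo1, cysteine dioxygenase, which begins the breakdown of cysteine to taurine, is on chromosome 18 (46713193 to 46728395, minus strand). It had 3.14 and 2.24 CPM in KPC tumour libraries and 0.486 and 0.375 CPM in Matrigel controls, and 1.24 and 0.878 CPM in KPP tumour libraries against 4.21 and 2.35 CPM in KPP controls. The KPC libraries lay at the level of the KPP controls, and the KPP tumour libraries lay between these and the Matrigel controls. It rose with KPC (2.63 ± 0.43) and fell with KPP (-1.64 ± 0.40), a difference of 4.27 ± 0.59 (adjusted p = 0.0290). The KPP call was lost without KPP control replicate 1 or KPP tumour replicate 2 (adjusted p up to 0.0916), and in the authors' deposited table the KPP change had an adjusted p of 0.0584. Cdo1 was below the level set for named genes and is given because it was 1 of the 6. Ptger4, the prostaglandin E2 receptor EP4, lies on chromosome 15 (5206661 to 5244187, minus strand). Its levels were 4.39 and 6.46 CPM in KPC tumour libraries and 1.30 and 1.30 CPM in Matrigel controls, and 1.32 and 0.909 CPM in KPP tumour libraries against 4.07 and 3.10 CPM in KPP controls. Matrigel control and KPP tumour libraries shared a low level near 1 CPM. Ptger4 rose with KPC (2.06 ± 0.37) and fell with KPP (-1.70 ± 0.37), a difference of 3.76 ± 0.52 (adjusted p = 0.0290), and both effects were called with each library left out.

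Cdc42ep3, an effector of the small GTPase Cdc42 that acts on the actin and septin cytoskeleton, is on chromosome 17 (79333727 to 79355091, minus strand). It had 47 and 55.3 CPM in KPC tumour libraries and 26 and 28.04 CPM in Matrigel controls, and 14.7 and 16.9 CPM in KPP tumour libraries against 26.9 and 25.2 CPM in KPP controls. The 4 control libraries had similar levels, and the tumour groups lay on opposite sides of all of them. It rose with KPC (0.92 ± 0.18) and fell with KPP (-0.73 ± 0.18), a difference of 1.65 ± 0.25 (adjusted p = 0.0456). Its KPP change had an adjusted p of 0.0529 without KPP tumour replicate 1 and of 0.068 in the authors' deposited table. Slc37a4, the glucose-6-phosphate transporter of the endoplasmic reticulum, lies on chromosome 9 (44396852 to 44402968, plus strand) and was the only 1 of the 6 that fell in both. It had 61.8 and 57.3 CPM in KPC tumour libraries against 128 and 123 CPM in Matrigel controls, and 17.6 and 17.96 CPM in KPP tumour libraries against 94.4 and 116 CPM in KPP controls. The KPP tumour libraries were the lowest and the KPC tumour libraries came next, below all 4 controls. The fall was -1.08 ± 0.16 with KPC and -2.56 ± 0.17 with KPP, a difference of 1.49 ± 0.23 (adjusted p = 0.0456). All 6 kept the sign of their difference in every setting tried, but each was called in only 2 or 3 of the 8 fits that left out a library, with adjusted p up to 0.214.

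**Figure D2:**
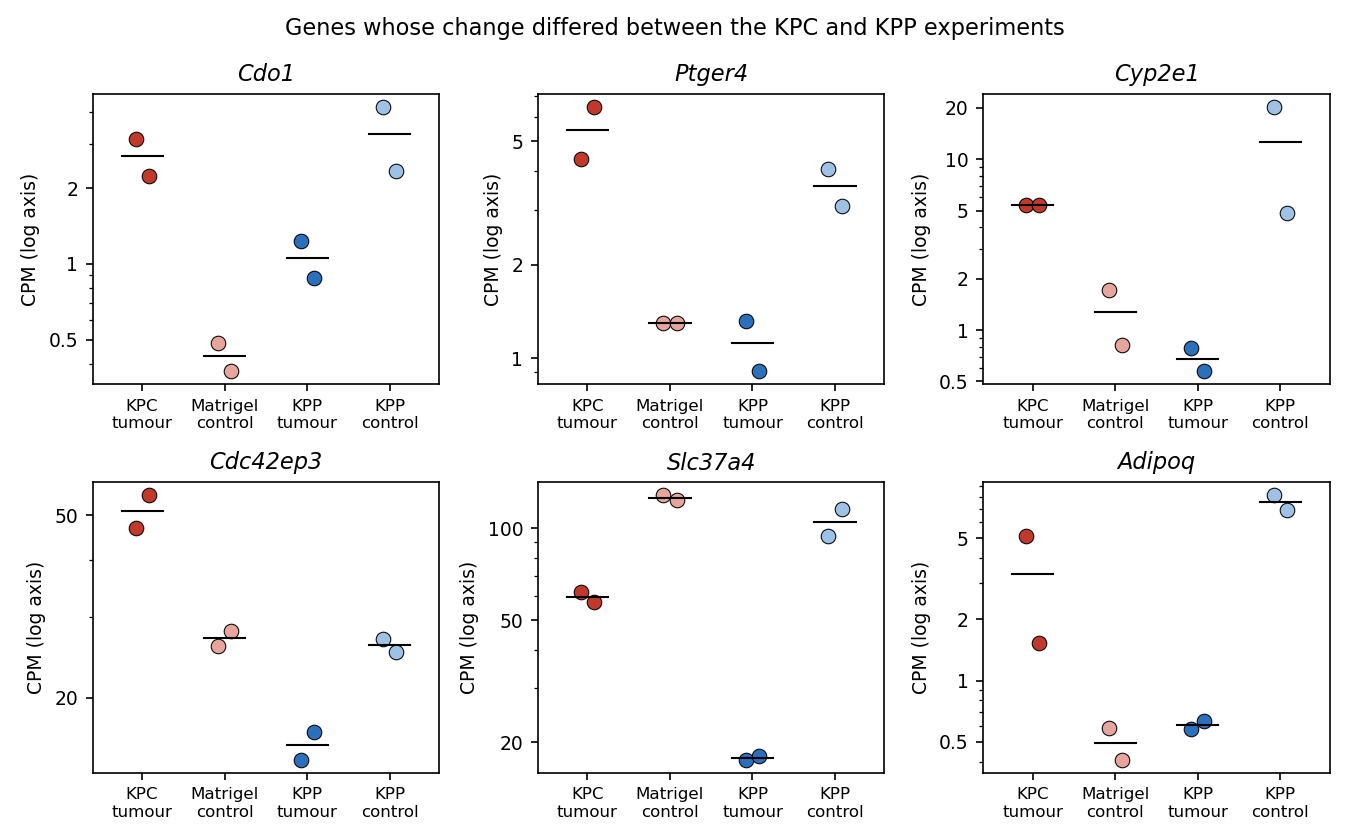
CPM on a logarithmic axis of the 6 genes with a called difference of effects, 1 point per library and a bar at the mean of each group of 2. In Adipoq, Cyp2e1, Cdo1 and Ptger4 KPC tumour lies above Matrigel control and KPP tumour below KPP control, in Cdc42ep3 the controls are alike, and in Slc37a4 both tumour groups are low.

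The promoters of the 2 largest differences are shown here, since Adipoq and Cyp2e1 moved together across the 4 groups. The windows run from 250 bases before to 50 bases after the RefSeq start (build GRCm38.p6), at chr16:23146286-23146585 on the plus strand for Adipoq and chr7:140763569-140763868 on the plus strand for Cyp2e1. Capitals mark a TATA box (TATAAA), which was found in Cyp2e1. Both strands were searched for 12 motifs, namely GAAA and GAAA parted by any 2 bases (interferon-stimulated response element), TTCNNNGAA (STAT), GTAAACA (FoxO), CACGTG (E-box), TTATGTAA (D-box), ACANNNTGT (glucocorticoid receptor), GGGA and TTTCC parted by any 1 base (kappaB), TGACNNNGC (antioxidant response), TTGCNNAA (C/EBP), CTAAAAATA (MEF2), TGCNCNC (core of the metal response element) and TATAAA. Overlapping matches were allowed. Adipoq held only TGCNCNC, left in lower case, a short core that 63.6% of the promoters of tested genes and 53.6% of all promoters held, and Cyp2e1 held only TATAAA. A motif not found says only that these letters are not in this window.
Adipoq: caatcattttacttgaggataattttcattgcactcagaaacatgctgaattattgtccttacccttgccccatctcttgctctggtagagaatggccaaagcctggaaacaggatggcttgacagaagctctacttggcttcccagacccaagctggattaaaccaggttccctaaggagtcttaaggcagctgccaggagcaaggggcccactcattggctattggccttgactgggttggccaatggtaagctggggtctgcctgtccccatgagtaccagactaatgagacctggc
Cyp2e1: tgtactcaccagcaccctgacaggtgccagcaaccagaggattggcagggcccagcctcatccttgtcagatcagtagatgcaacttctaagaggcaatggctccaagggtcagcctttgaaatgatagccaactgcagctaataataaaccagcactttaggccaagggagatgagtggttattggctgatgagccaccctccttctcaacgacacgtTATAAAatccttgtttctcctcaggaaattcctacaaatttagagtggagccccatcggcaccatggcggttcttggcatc
The letters of the TATA box were found in 15.7% of all promoters of this length and in 9.78% of those of tested genes.

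Called in both models in opposite directions were 32 genes (0.199%), 28 higher with KPC and lower with KPP and 4, Crebl2, Prex1, Nemp1 and the pseudogene Hmgb1-ps8, the reverse. In all 32 the difference of effects had an unadjusted p under 0.05, 5 were called by edgeR and all 32 by DESeq2. Genes called in opposite directions have a large difference by selection, so these counts are no separate evidence. The number was 7 to 13 without KPC tumour replicate 2, KPP control replicate 1 or either Matrigel control, 51 without KPP tumour replicate 1 and 99 without KPC tumour replicate 1. Beyond those 5, the smallest p belonged to Kcnf1, a modifying subunit of voltage-gated potassium channels. Kcnf1 had 33.1 and 35.4 CPM in KPC tumour libraries and 1.98 and 2.66 CPM in Matrigel controls, and 0.124 and 0.787 CPM in KPP tumour libraries against 2.44 and 1.60 CPM in KPP controls. The KPC tumour libraries alone were high, and the difference of 5.95 ± 0.97 had an adjusted p of 0.0580 by edgeR and 2.17e-07 by DESeq2. Its fall with KPP (-2.06 ± 0.74) was called in only 1 of the 8 fits that left out a library. Hp, the haemoglobin-binding acute phase protein haptoglobin, had 11.4 and 14.6 CPM in KPC tumour libraries and 1.17 and 0.751 CPM in Matrigel controls, and 2.06 and 2.36 CPM in KPP tumour libraries against 18.2 and 4.84 CPM in KPP controls. Neither pair overlapped, and the difference was 6.14 ± 1.03 (adjusted p = 0.0616), but its fall with KPP was lost without KPP control replicate 1 or either KPP tumour library (adjusted p up to 0.294). Hes1, the repressor through which Notch signals act, had 23.1 and 23.4 CPM in KPC tumour libraries and 8.65 and 12.4 CPM in Matrigel controls, and 4.50 and 7.69 CPM in KPP tumour libraries against 11.6 and 16.8 CPM in KPP controls. It rose with KPC (1.14 ± 0.28) and fell with KPP (-1.21 ± 0.29), a difference of 2.35 ± 0.40 (adjusted p = 0.0619), with the KPC call lost without Matrigel control replicate 1 (0.0978) and the KPP call without KPP tumour replicate 1 (0.0509). The others, with differences of 3.08 ± 0.51 for the synaptic scaffold gene Tanc1, 6.03 ± 1.04 for the lipid droplet gene Cidec, 1.92 ± 0.34 for the stress-response gene Ndrg1 and 3.17 ± 0.57 for the Wnt modulator gene Dkk2, had adjusted p of 0.0616 to 0.0628. Their KPC call was lost without 1 or both Matrigel controls in all 4 and without KPC tumour replicate 2 in all but Cidec. The KPP call was lost without KPP control replicate 1 in Cidec and Dkk2 and without KPP tumour replicate 2 in Ndrg1 and Dkk2 (adjusted p up to 0.461 over these fits).

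Fat-cell genes had the largest median difference of the 47 gene lists compared. Of 12 adipocyte markers tested out of 13 listed, 5 rose and 1 fell with KPC (median 1.44), and 1 rose and 9 fell with KPP (median -2.14), of which 4 were called in both in opposite directions. The median difference of effects was 2.98, 11 of 12 values were positive, and 1, Adipoq, was called by edgeR and 6 by DESeq2. Over all genes these medians were -0.01, -0.04 and 0.01. For this and later lists, the shares of all genes were 15.3% higher and 13.7% lower with KPC. With KPP they were 17.4% and 19.3%. Of all differences 15.9% had an unadjusted p under 0.05, and DESeq2 called 2.49%. Cfd, the fat-cell protease adipsin of the complement system, had 29.3 and 11.5 CPM in KPC tumour libraries and 5.15 and 2.59 CPM in Matrigel controls, and 5.33 and 1.21 CPM in KPP tumour libraries against 65.8 and 20.7 CPM in KPP controls. It rose with KPC (2.40 ± 0.78) and fell with KPP (-3.76 ± 0.82), while the difference of 6.16 ± 1.13 had an adjusted p of 0.0628. Retn, the hormone resistin, rose with KPC (2.19 ± 0.69) and fell with KPP (-2.35 ± 0.67) with a difference of 4.53 ± 0.96 (adjusted p = 0.0699). The KPC calls of both were lost without KPC tumour replicate 1 or either Matrigel control (adjusted p up to 0.298), and the KPP call of Retn without KPP control replicate 1 or either KPP tumour library (up to 0.147).

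Between the controls 0 of these markers were called by edgeR, and their median was -1.75 for Matrigel minus KPP. Summed over the 13 markers the level was 1461 and 1737 CPM in KPC tumour libraries and 2227 and 2123 CPM in Matrigel controls, and 451 and 785 CPM in KPP tumour libraries against 1720 and 2142 CPM in KPP controls. That sum is carried by Car3, which myofibres also express. Without it, a choice made after the values were seen, the sums were 296 and 443 CPM in KPC tumour libraries and 189 and 232 CPM in Matrigel controls, and 241 and 183 CPM in KPP tumour libraries against 374 and 386 CPM in KPP controls. No marker was at 0 in all 8 libraries. How much fat lay in each sample was not measured, and its part in these values was not tested. The median difference ran from 2.62 to 3.37 with each library left out. The markers called higher with KPC numbered 0 without either Matrigel control, and those called lower with KPP numbered 5 without KPP control replicate 1 or either KPP tumour library.

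Several nerve sheath genes and most vessel genes fell with KPP. Of 11 Schwann cell markers 1 rose with KPC (median 0.34), whereas 5 fell with KPP (median -1.41), and all 11 differences were positive with a median of 1.91. The number lower with KPP was 3 without KPP tumour replicate 1 and 2 without KPP tumour replicate 2, and 0 were higher with KPC without KPC tumour replicate 2 or either Matrigel control. The KPC median was 0.52 without KPC tumour replicate 1 and 0.18 without KPC tumour replicate 2, and the KPP median -0.81 without KPP control replicate 2. Ngfr, the low-affinity nerve growth factor receptor, rose with KPC (1.93 ± 0.52), and its KPP effect of -0.80 ± 0.56 was not called.

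Of 20 endothelial markers 4 rose and 4 fell with KPC (median 0.25), and 1 rose and 16 fell with KPP (median -1.34). The median difference was 1.32, with 19 of 20 positive, 0 called by edgeR, 14 positive at an unadjusted p under 0.05 and 8 called by DESeq2. The 4 markers lower with KPC were lower with KPP as well, and Aplnr, given below, was among them. Cdh5, the cadherin of endothelial junctions, had 33.3 and 92.1 CPM in KPC tumour libraries and 43.7 and 53.2 CPM in Matrigel controls, and 13.1 and 10.3 CPM in KPP tumour libraries against 52.3 and 46.95 CPM in KPP controls. The KPC tumour libraries lay on either side of their controls, while both KPP tumour libraries were far below theirs. Cdh5 fell with KPP (-2.08 ± 0.37), and its difference was 2.45 ± 0.51 (adjusted p = 0.0699). Tek, the angiopoietin receptor, had a difference of 1.46 ± 0.31, Robo4, a guidance receptor of vessels, one of 2.32 ± 0.47, and Ptprb, a vascular phosphatase, one of 1.67 ± 0.36, each with an adjusted p of 0.0699. KPC tumour replicate 2 had a higher summed level of these markers than its partner. The markers summed to 643 and 1088 CPM in KPC tumour libraries and 589.9 and 645 CPM in Matrigel controls, and to 469 and 368 CPM in KPP tumour libraries against 689 and 658 CPM in KPP controls. Without that library the KPC median was -0.44, the opposite sign, and the median difference 0.90, and without its partner they were 0.65 and 1.64. The KPC median was 0.13 without Matrigel control replicate 2. The number higher with KPC was 8 without KPC tumour replicate 1 and 2 without KPC tumour replicate 2 or either Matrigel control, and the number lower with KPP was 10 without KPP control replicate 1. Col4a1 and Col4a2, the basement membrane collagens, showed the same library. Col4a1 had 55.2 and 257 CPM in KPC tumour libraries and 68.4 and 62.4 CPM in Matrigel controls, and 17.3 and 20.6 CPM in KPP tumour libraries against 93.8 and 60.2 CPM in KPP controls, a difference of 3.27 ± 0.70 (adjusted p = 0.0699).

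**Figure D3:**
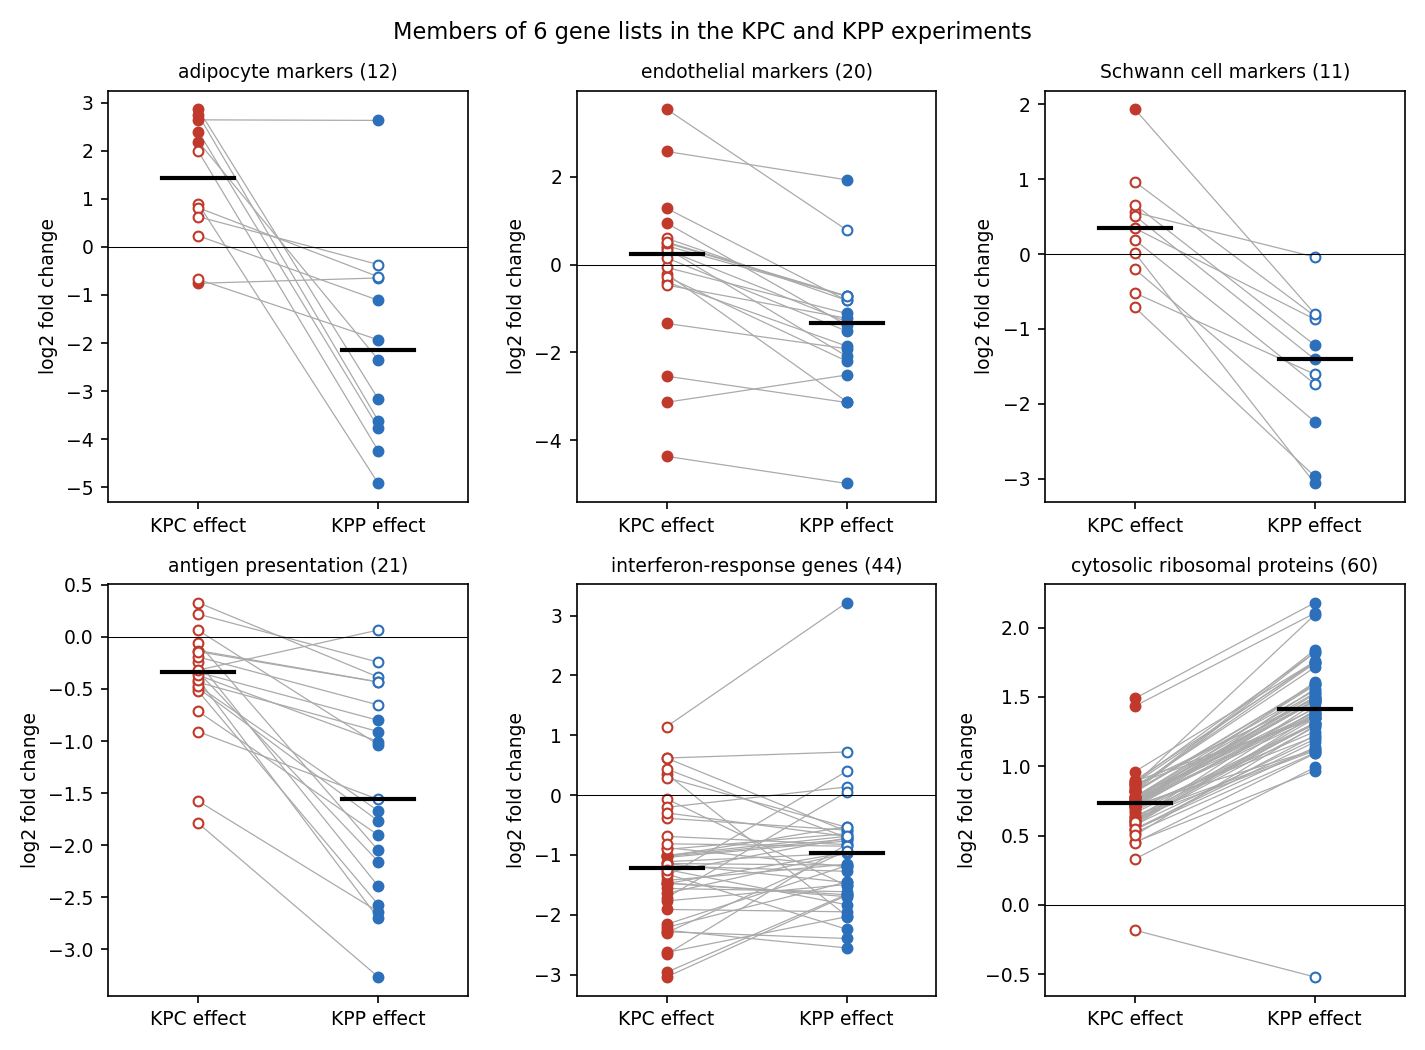
Log2 KPC effect (left, red) and KPP effect (right, blue) of each tested member of 6 gene lists, with a grey line joining the 2 values of a gene, filled points for called genes, open points for others and a black bar at the median. Most lines slope down in the adipocyte, endothelial, Schwann and antigen lists, show no common slope in the interferon list and slope up in 59 of 60 ribosomal protein genes.

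Some complement and antigen presentation genes fell with KPP, and in both lists the calls depended on single libraries. Of 20 complement genes 3 rose and 1 fell with KPC (median 0.33), and 1 rose and 9 fell with KPP (median -0.71), with a median difference of 1.00 and 18 of 20 positive. C4b, complement component 4, had 11.7 and 22.8 CPM in KPC tumour libraries and 2.92 and 2.52 CPM in Matrigel controls, and 8.96 and 8.18 CPM in KPP tumour libraries against 17.3 and 3.80 CPM in KPP controls. The KPC pair did not overlap and the KPP pair did. C4b rose with KPC (2.66 ± 0.57), and its difference of 2.98 ± 0.78 had an adjusted p of 0.115 by edgeR and 0.0101 by DESeq2. The KPC call was lost without Matrigel control replicate 2 (adjusted p = 0.0529). Of the complement genes, 5 were lower with KPP without KPP control replicate 1 or KPP tumour replicate 2, and 0 were higher with KPC without Matrigel control replicate 2. The KPC median turned to -0.22 without KPC tumour replicate 2, where the median difference was 0.62, and was 0.65 without KPC tumour replicate 1 and 0.01 without Matrigel control replicate 2. Of 21 antigen presentation genes 0 were called with KPC (median -0.34), and 14 fell with KPP (median -1.56). This fall turned on KPP control replicate 1, whose summed level was 794 CPM against 426 in its partner and 382 and 337 CPM in the KPP tumour libraries. It was also the library with Epcam and Cdh1, whose part in this result was not tested. The KPC tumour libraries had 370.4 and 391 CPM and the Matrigel controls 399.8 and 375 CPM. The median difference was 1.06. Without that control 0 of the 21 were called with KPP, the KPP median was -0.73 and the median difference 0.24. Without KPP tumour replicate 2 the count was 4 and the median difference 0.65. Without KPC tumour replicate 2 the KPC median was -0.61 and the median difference 0.64, and without KPC tumour replicate 1 the KPC median was -0.21. Reads of the near-identical H2-Q genes were divided among copies, so single members are uncertain.

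Collagen genes fell in both models. Of 26 collagen genes 19 fell with KPC (median -1.83) and 24 with KPP (median -2.50), of which 18 in both. Col1a1, a chain of type I collagen, had 1.98 and 4.30 CPM in KPC tumour libraries against 265 and 60.3 CPM in Matrigel controls, and 2.39 and 5.48 CPM in KPP tumour libraries against 162 and 40.3 CPM in KPP controls. All 4 tumour libraries lay below all 4 controls, and the controls themselves spread about 4-fold. The fall was -5.70 ± 0.88 with KPC and -4.66 ± 0.83 with KPP. Col3a1 fell by 4.70 ± 0.59 with KPC and by 5.30 ± 0.61 with KPP. Tendon markers were lower as well, with 7 of 12 lower with KPC (median -3.14) and 8 lower and 1 higher with KPP (median -3.57), 7 of them lower in both. Their summed level was 78.3 and 87.8 CPM in KPC tumour libraries against 515 and 170.1 CPM in Matrigel controls, and 59.9 and 73.96 CPM in KPP tumour libraries against 406 and 194 CPM in KPP controls. As with Col1a1, replicate 1 was the higher of both control pairs, and the part of tendon in the collagen values was not tested. Without Matrigel control replicate 1 the number lower with KPC was 2 and the median -1.80, and without KPC tumour replicate 2 the number was 3. With KPP 4 were lower without KPP control replicate 1 and 5 without either KPP tumour library. Tnmd, the tendon protein tenomodulin, fell by 4.58 ± 1.00 with KPC and by 5.19 ± 1.01 with KPP. Aplnr, the apelin receptor, is an endothelial marker rather than a matrix gene. It fell by 4.37 ± 0.86 with KPC and by 4.98 ± 0.89 with KPP. Nrep, a gene of regenerating tissue and matrix cells, fell by 5.34 ± 0.59 with KPC and by 5.21 ± 0.60 with KPP. The number of collagens lower with KPC was 11 or 12 without either KPC tumour library or either Matrigel control.

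Among 41 other matrix genes 6 rose and 16 fell with KPC (median -0.75), and 1 rose and 28 fell with KPP (median -1.64). Of their differences 39 were positive (median 0.99), 0 were called by edgeR, 19 were positive at an unadjusted p under 0.05 and 6 were called by DESeq2. Plod2, which hydroxylates collagen lysines, rose with KPC (1.18 ± 0.27) against -0.73 ± 0.28 with KPP, which was not called, and lost its KPC call without Matrigel control replicate 1 (adjusted p = 0.0782). Mmp14, a membrane protease that cleaves matrix, rose with KPC (1.42 ± 0.27) against -0.16 ± 0.26 with KPP. Fbn1, the microfibril protein fibrillin 1, had 4.69 and 11.9 CPM in KPC tumour libraries and 17.1 and 12.8 CPM in Matrigel controls, and 1.69 and 3.06 CPM in KPP tumour libraries against 20.98 and 18.8 CPM in KPP controls. The KPP tumour libraries were the lowest, and the fall was called with KPP (-3.05 ± 0.43) and not with KPC (-0.85 ± 0.39). The number lower with KPC was 7 without KPC tumour replicate 1, 9 without KPC tumour replicate 2 and 4 without Matrigel control replicate 1, and the number higher was 2 without KPC tumour replicate 2 or Matrigel control replicate 2 and 3 without Matrigel control replicate 1. The KPC median was -0.29 without KPC tumour replicate 1. Markers of fibro-adipogenic progenitors, the matrix-making cells of muscle, had 1 higher and 8 lower of 18 with KPC (median -0.41), and 1 higher and 13 lower with KPP (median -1.46). Those lower with KPC numbered 2 to 4 without either KPC tumour library or either Matrigel control, and the KPC median was -0.76 without KPC tumour replicate 2 and -0.75 without Matrigel control replicate 2.

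Cytosolic ribosomal protein genes rose in both models, with the larger values with KPP. Of 60 tested 52 rose with KPC (median 0.73) and 59 with KPP (median 1.41), and all 52 rose in both. Their summed level was 21850 and 16610 CPM in KPC tumour libraries against 11420 and 12940 CPM in Matrigel controls, and 38560 and 38850 CPM in KPP tumour libraries against 13040 and 16870 CPM in KPP controls. The KPP tumour libraries stood far above the other 6, and the KPC tumour libraries overlapped the KPP controls but not their own. The difference of effects was negative for 59 of 60 (median -0.72, from -0.96 to -0.53 with each library left out). By edgeR 0 were called, 40 had a negative value at an unadjusted p under 0.05, and DESeq2 called 6. Rpl10a, a protein of the large subunit, had 227 and 196 CPM in KPC tumour libraries against 111 and 128 CPM in Matrigel controls, and 481 and 502 CPM in KPP tumour libraries against 126 and 148 CPM in KPP controls, a difference of -1.01 ± 0.24 (adjusted p = 0.0901 by edgeR, 0.00174 by DESeq2). The number higher with KPC was 18 without KPC tumour replicate 1, 6 without Matrigel control replicate 1 and 13 without Matrigel control replicate 2. Among genes of ribosome assembly and translation the medians were closer, with 19 of 32 higher with KPC (median 0.96), 24 higher with KPP (median 0.84) and 17 higher in both. Those higher with KPC numbered 12 without KPC tumour replicate 2, where the KPC median was 0.62, and 11 without Matrigel control replicate 2, and those higher with KPP 14 without KPP control replicate 1.

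The core atrophy genes rose in both models. The ubiquitin ligase gene Fbxo32 (atrogin-1) had 1916 and 2847 CPM in KPC tumour libraries against 407 and 211 CPM in Matrigel controls, and 1380 and 1100 CPM in KPP tumour libraries against 262 and 412 CPM in KPP controls. All tumour libraries lay above all controls. Fbxo32 rose with KPC (2.95 ± 0.34) and with KPP (1.88 ± 0.33), and the difference of 1.07 ± 0.45 was not called (adjusted p = 0.271). Trim63 (MuRF1), the ligase of the sarcomere, had 2646 and 6321 CPM in KPC tumour libraries against 260.3 and 161 CPM in Matrigel controls, and 2853 and 2500 CPM in KPP tumour libraries against 212 and 413 CPM in KPP controls. KPC tumour replicate 2 was the highest, and the KPP tumour libraries lay about the level of KPC tumour replicate 1. It rose with KPC (4.41 ± 0.50) and with KPP (3.10 ± 0.47), a difference of 1.31 ± 0.62 (adjusted p = 0.319). In the panel of 20 atrophy genes 13 rose and 4 fell with KPC, 14 rose and 4 fell with KPP, and 12 rose and 4 fell in both. The panel was chosen with earlier results of these data known, so its agreement is no separate evidence. The cell cycle inhibitor gene Cdkn1a rose by 6.26 ± 0.65 with KPC and by 4.07 ± 0.59 with KPP. Foxo1, a transcription factor of atrophy, rose by 3.53 ± 0.57 with KPC and by 2.65 ± 0.56 with KPP. The interleukin-6 receptor gene Il6ra rose by 5.06 ± 0.54 with KPC and by 2.98 ± 0.50 with KPP, with a difference of 2.07 ± 0.67 (adjusted p = 0.175). Gadd45a, a stress gene of denervated and fasted muscle, rose by 2.58 ± 0.35 with KPC and by 1.60 ± 0.34 with KPP. Eda2r, the ectodysplasin A2 receptor, rose by 2.28 ± 0.37 with KPC and by 2.47 ± 0.38 with KPP. Smox, the spermine oxidase, fell by 2.49 ± 0.34 with KPC and by 3.33 ± 0.35 with KPP. Of the 20 differences 14 were positive and 0 were called by edgeR, while 7 had an unadjusted p under 0.05 and DESeq2 called 2, Pdk4 and Nmrk2.

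Pdk4, the kinase that shuts pyruvate dehydrogenase and spares glucose, had the largest difference in the panel. It had 1643 and 5029 CPM in KPC tumour libraries against 208 and 141 CPM in Matrigel controls, and 1029 and 524 CPM in KPP tumour libraries against 368 and 1010 CPM in KPP controls. The KPC groups were far apart, whereas the KPP groups overlapped and KPP control replicate 2 matched KPP tumour replicate 1. Pdk4 rose with KPC (4.26 ± 0.56) and not detectably with KPP (0.17 ± 0.49), and the difference of 4.08 ± 0.71 had an adjusted p of 0.0628 by edgeR and 0.000317 by DESeq2. Nmrk2, the nicotinamide riboside kinase of muscle, fell in both. It had 5.94 and 0.888 CPM in KPC tumour libraries against 129.5 and 112 CPM in Matrigel controls, and 19.2 and 37.4 CPM in KPP tumour libraries against 118 and 155 CPM in KPP controls. The KPC tumour libraries were the lowest, and the difference was -2.86 ± 0.71 (adjusted p = 0.104 by edgeR, 0.0352 by DESeq2). In 2 others, 1 KPP tumour library was far above the other. Socs3, the feedback inhibitor of STAT3 signalling, had 2.35 and 52.6 CPM in the KPP tumour libraries against 3.71 and 3.00 CPM in their controls, and Ppargc1a, the coactivator PGC-1α of mitochondrial genes, had 19.4 and 236 CPM in the KPP tumour libraries against 33.2 and 33.9 CPM in the KPP controls. Without KPP tumour replicate 2 neither was called with KPP (adjusted p = 0.214 for Socs3 and 0.191 for Ppargc1a). Socs3 also lost its call without either KPP control, and Ppargc1a without any 1 of the 4 controls. The fast myosin gene Myh4 was not called with either model (0.50 ± 0.42 with KPC, -0.62 ± 0.42 with KPP), and Myh1, another fast myosin, rose with KPP (1.93 ± 0.33) against 0.42 ± 0.32 with KPC. Their near-identical reads were divided between copies.

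**Figure D4:**
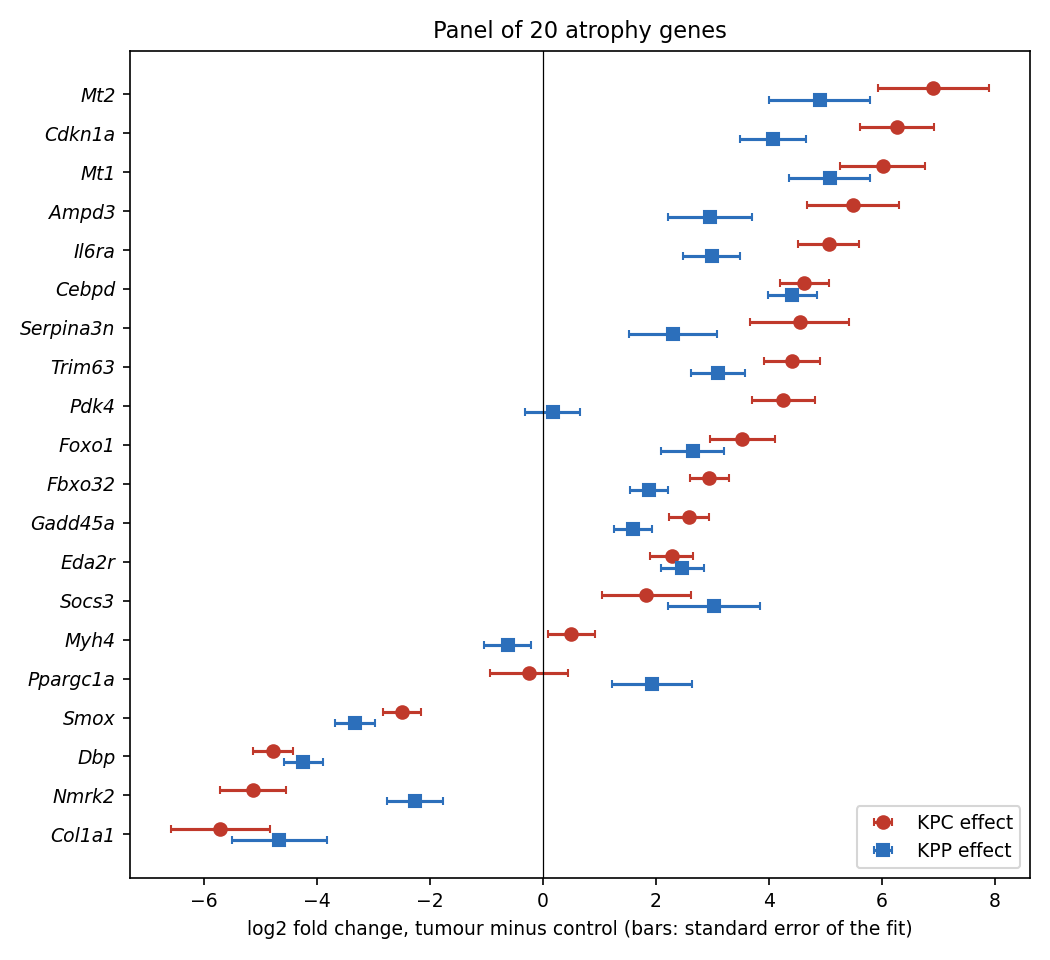
Log2 KPC effect (red circles) and KPP effect (blue squares) of the 20 atrophy panel genes, with 2 libraries per group. Bars are 1 standard error worked back from the F statistic, with the spread estimated over all 18 libraries. Most genes lie on the same side of 0 in both, and Pdk4 lies at 4.26 with KPC and 0.17 with KPP.

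Targets of glucocorticoids and of FoxO factors rose in 26 of 29 cases with KPC, where 2 fell (median 2.88), and 21 rose and 2 fell with KPP (median 2.11), with 21 higher and 2 lower in both. The differences were positive in 24 of 29 (median 0.85), with 0 called by edgeR, 10 at an unadjusted p under 0.05 and 3 by DESeq2. The median difference was 0.41 without KPC tumour replicate 2 and 0.50 without KPP tumour replicate 1. Those called by DESeq2 besides Pdk4 were Rasd1, a dexamethasone-induced Ras protein, and Zbtb16, a transcription factor induced by glucocorticoids. Rasd1 had 6.98 and 7.03 CPM in KPC tumour libraries against 0.259 and 0.341 CPM in Matrigel controls, and 2.52 and 0.666 CPM in KPP tumour libraries against 0.637 and 0.849 CPM in KPP controls. The KPC tumour libraries stood alone, and the difference was 3.44 ± 0.74 (adjusted p = 0.0699). Zbtb16 rose with KPC (2.71 ± 0.43) against 0.74 ± 0.41 with KPP, which was not called, a difference of 1.96 ± 0.58 (adjusted p = 0.145). Of 22 ubiquitin ligases 12 rose and 1 fell with KPC (median 0.60). With KPP 5 rose and 3 fell (median 0.16), near the 17.4% and 19.3% of all genes. Those higher with KPC numbered 4 without KPC tumour replicate 2 or Matrigel control replicate 2 and 6 without Matrigel control replicate 1, and those lower with KPP 1 without KPP control replicate 2 or either Matrigel control. The KPP median was 0.09 without KPP control replicate 1 and 0.30 without KPP control replicate 2.

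Proteasome subunit genes rose in both, 24 of 33 with KPC (median 0.77) and 29 with KPP (median 1.13), and all 24 rose in both. Psmd4, the ubiquitin receptor of the regulatory particle, rose by 1.58 ± 0.28 with KPC and by 2.39 ± 0.28 with KPP. The number higher with KPC was 11 without KPC tumour replicate 2, 9 without Matrigel control replicate 1 and 7 without Matrigel control replicate 2, and the number higher with KPP was 19 without KPP control replicate 1. Autophagy and lysosome genes rose in 17 of 29 cases with each model (medians 0.77 with KPC and 0.91 with KPP), 15 of them in both, and with KPC the count was 10 without Matrigel control replicate 1 and 7 without Matrigel control replicate 2. Ulk2, a kinase that starts autophagy, fell with KPP (-1.82 ± 0.29) against -0.42 ± 0.28 with KPC, which was not called.

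Among the largest increases shared by both models were neutrophil genes, Cebpd and the metallothionein genes. Lcn2, the iron-binding lipocalin of neutrophils and inflamed tissue, had 29.2 and 34.6 CPM in KPC tumour libraries against 0.908 and 0.375 CPM in Matrigel controls, and 19.9 and 56 CPM in KPP tumour libraries against 0.672 and 1.20 CPM in KPP controls. S100a8, the calcium-binding protein of neutrophils, had 24.2 and 17.1 CPM in KPC tumour libraries against 0.421 and 0.205 CPM in Matrigel controls, and 8.05 and 46.4 CPM in KPP tumour libraries against 0.212 and 0.499 CPM in KPP controls. All tumour libraries were above all controls in both genes, and the KPP tumour libraries spread more widely than the KPC ones. Of 11 neutrophil markers 10 rose with KPC (median 5.02) and 6 with KPP (median 4.73), and the 6 rose in both. With KPC 5 were called without Matrigel control replicate 2. Retnlg, a resistin-like gene of neutrophils, had 6.49 and 5.75 CPM in KPC tumour libraries against 0.0648 and 0.0341 CPM in Matrigel controls, and 2.27 and 2.12 CPM in KPP tumour libraries against 0.0354 and 0 CPM in KPP controls, the controls resting on 0 to 2 counts. Summed, the 15 listed markers reached 106 and 94.3 CPM in KPC tumour libraries against 4.63 and 2.80 CPM in Matrigel controls, and 41.6 and 121 CPM in KPP tumour libraries against 5.94 and 4.75 CPM in KPP controls. Cebpd, whose product C/EBPδ drives acute phase genes, rose by 4.63 ± 0.43 with KPC and by 4.42 ± 0.43 with KPP. Of 22 STAT3 and acute phase genes 12 rose and 1 fell with KPC (median 2.07). With KPP 11 rose and 2 fell (median 1.22). In both, 9 rose and 1 fell, and 1 was called in opposite directions. Without KPP tumour replicate 2 the KPP median was 0.18. Haptoglobin (Hp), given above, rose with KPC and fell with KPP. The metallothionein genes Mt1 and Mt2, which bind zinc, rose by 6.01 ± 0.75 and 6.91 ± 0.98 with KPC and by 5.07 ± 0.72 and 4.90 ± 0.89 with KPP. Doc2b, a calcium sensor of vesicle release, rose by 6.60 ± 1.18 with KPC and by 4.40 ± 1.10 with KPP, and Gnmt, the glycine methyltransferase, by 4.30 ± 0.67 with KPC and by 4.96 ± 0.66 with KPP. Without KPP control replicate 1 the KPP call of Doc2b was lost (adjusted p = 0.0813).

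Interferon-response genes fell in both models. Of 44 tested 28 fell with KPC (median -1.22), and 26 fell and 1 rose with KPP (median -0.97), with 20 lower in both. The differences had a median of -0.12 (from -0.37 to 0.07 with each library left out), 21 positive and 23 negative. Of these 0 were called by edgeR or DESeq2 and 6 had an unadjusted p under 0.05, near the 15.9% of all genes. The summed level was 119 and 102 CPM in KPC tumour libraries against 226 and 228 CPM in Matrigel controls, and 134 and 174 CPM in KPP tumour libraries against 337 and 241 CPM in KPP controls, with every tumour library below its own controls. Tgtp2, an interferon-induced GTPase, fell by 3.04 ± 0.60 with KPC and by 1.68 ± 0.53 with KPP, the second call being lost without KPP control replicate 1 or KPP tumour replicate 1 (adjusted p up to 0.26). Its sister gene Tgtp1 had unscaled counts of 27 and 17 in KPC tumour libraries against 68 and 74 in Matrigel controls. With KPP its groups overlapped, at 41 and 170 counts in tumour libraries against 137 and 35 in controls. Reads of such copies were divided, so the KPP fall of Tgtp2 is uncertain. Gbp5, a guanylate-binding protein, fell by 2.63 ± 0.43 with KPC and by 2.03 ± 0.41 with KPP. The number lower with KPC was 17 without KPC tumour replicate 2 or Matrigel control replicate 2, and with KPP it was 7 without KPP control replicate 1 and 12 without KPP tumour replicate 1.

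Interferon-stimulated genes often carry a response element near their start, whose letters were searched here on both strands as GAAA and GAAA parted by any 2 bases. Of the 33 listed genes with a RefSeq promoter of 300 bases 20 held it (60.6%), against 3.86% of the 11354 tested genes with a promoter and 3.99% of all 27025 genes with one. Among the 20 listed genes lower in both, 8 held it (Stat2, Ifit3, Gbp2, Gbp3, Gbp5, Gbp7, Tgtp2 and Trim30a). How many of those 20 have a RefSeq promoter is not given here, so no share can be set beside the 60.6%. The promoters of Gbp5, Tgtp2 and Gbp3 are shown because, of those 8, these had the largest falls common to both models. The limit on Tgtp2 given above applies. The element is in capitals, and the build is GRCm38.p6. They lie at chr3:142496684-142496983 on the plus strand, chr11:49064163-49064462 on the minus strand and chr3:142559794-142560093 on the plus strand. Gbp3 has a second RefSeq start, whose window did not hold the element, and in the window shown 2 copies overlap.
Gbp5: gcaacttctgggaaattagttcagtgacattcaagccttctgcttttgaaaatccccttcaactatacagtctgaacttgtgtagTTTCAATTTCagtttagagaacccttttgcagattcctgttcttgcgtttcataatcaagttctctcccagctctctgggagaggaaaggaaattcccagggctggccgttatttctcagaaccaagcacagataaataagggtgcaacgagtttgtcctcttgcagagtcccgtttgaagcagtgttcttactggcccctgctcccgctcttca
Tgtp2: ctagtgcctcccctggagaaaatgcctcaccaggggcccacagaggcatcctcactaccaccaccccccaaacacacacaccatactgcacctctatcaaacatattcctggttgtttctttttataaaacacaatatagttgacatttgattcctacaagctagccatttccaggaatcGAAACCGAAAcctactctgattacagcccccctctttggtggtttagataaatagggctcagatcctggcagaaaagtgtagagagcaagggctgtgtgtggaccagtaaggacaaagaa
Gbp3: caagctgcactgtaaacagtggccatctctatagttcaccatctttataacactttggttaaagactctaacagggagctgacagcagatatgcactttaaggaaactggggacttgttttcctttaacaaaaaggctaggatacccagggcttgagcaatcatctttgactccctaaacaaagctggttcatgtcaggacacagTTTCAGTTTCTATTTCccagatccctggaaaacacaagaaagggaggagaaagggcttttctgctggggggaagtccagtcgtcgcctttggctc

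Signals that act on muscle size were examined next. In the myostatin, activin and BMP list 10 of 26 rose and 4 fell with KPC (median 0.66). With KPP 6 rose and 5 fell (median -0.28), near the 17.4% and 19.3% of all genes. There were 23 positive differences, 0 called by edgeR, 9 at an unadjusted p under 0.05 (15.9% of all genes) and 3 by DESeq2. Acvr2a, a receptor for myostatin and activins, had 57.5 and 45.8 CPM in KPC tumour libraries against 25.5 and 22.4 CPM in Matrigel controls, and 21.6 and 22.5 CPM in KPP tumour libraries against 22 and 21.7 CPM in KPP controls. Only the KPC tumour libraries were high, and the difference was 1.09 ± 0.27 (adjusted p = 0.101). The related receptor gene Acvr2b went the other way with KPC. Its unscaled counts were 90 and 58 in KPC tumour libraries against 184 and 216 in Matrigel controls. With KPP the groups overlapped, at 107 and 173 counts in tumour libraries against 165 and 92 in controls. Inhbb, which encodes the activin B subunit, rose with KPC (5.08 ± 0.64) and with KPP (1.64 ± 0.57), a difference of 3.43 ± 0.82 (adjusted p = 0.0962), but its KPP call was lost without KPP tumour replicate 1 or either KPP control (up to 0.501). Bmp4, a BMP ligand, rose with KPC (1.11 ± 0.21) against -0.25 ± 0.21 with KPP. Those higher with KPC numbered 6 without KPC tumour replicate 2 or either Matrigel control, and those higher with KPP 2 without either KPP control and 3 without KPP tumour replicate 1. The KPC median was 0.01 without KPC tumour replicate 2. The KPP median was 0.02 without KPP control replicate 1 and -0.17 without either KPP tumour library.

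In the NF-kB pathway 15 of 24 differences were negative, against 7881 of 16096 over all genes. Their median was -0.49, from -0.60 to -0.17 with each library left out. By edgeR 0 were called and by DESeq2 1, and 4 had an unadjusted p under 0.05, near the 15.9% of all genes. Nfkb2, the precursor of the non-canonical subunit p52, had 11.4 and 7.39 CPM in KPC tumour libraries and 9.17 and 7.85 CPM in Matrigel controls, and 22.4 and 29.8 CPM in KPP tumour libraries against 8.91 and 8.74 CPM in KPP controls. The KPP tumour libraries alone were high, and Nfkb2 rose with KPP (1.57 ± 0.27) against 0.15 ± 0.27 with KPC, a difference of -1.42 ± 0.38 (adjusted p = 0.117 by edgeR, 0.0218 by DESeq2). Its partner gene Relb also rose with KPP (0.85 ± 0.27) against -0.17 ± 0.27 with KPC, a call lost without KPP tumour replicate 1 or either KPP control (adjusted p up to 0.228). In that list 10 of 24 rose and 4 fell with KPC (median 0.48), and 12 rose with KPP (median 0.85), with 15 negative differences. Those called higher with KPC numbered 3 to 5 and those called lower 0 to 2 without KPC tumour replicate 2 or either Matrigel control, the lower ones also 2 without KPC tumour replicate 1, and those higher with KPP 7 without either KPP control. The KPC median was 0.79 without KPC tumour replicate 1, 0.26 without KPC tumour replicate 2 and 0.24 without Matrigel control replicate 2.

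Of 37 genes of fatty acid uptake, storage and oxidation 18 rose and 1 fell with KPC (median 0.81), and 9 rose and 3 fell with KPP (median 0.12), with 30 positive differences (median 0.49), 0 called by edgeR, 10 at an unadjusted p under 0.05 and 5 by DESeq2. Angptl4, the lipoprotein lipase inhibitor, had 3.44 and 13.2 CPM in KPC tumour libraries against 0.357 and 0.614 CPM in Matrigel controls, and 3.43 and 2.18 CPM in KPP tumour libraries against 2.69 and 4.94 CPM in KPP controls. It rose with KPC (4.09 ± 0.86) and not detectably with KPP (-0.44 ± 0.74), and the difference was 4.53 ± 1.13 (adjusted p = 0.104). Ucp3, the uncoupling protein of muscle, had 208 and 1118 CPM in KPC tumour libraries against 139.8 and 121 CPM in Matrigel controls, and 167 and 75.3 CPM in KPP tumour libraries against 225 and 296 CPM in KPP controls. KPC tumour replicate 2 alone was far above the rest, and without it 7 of the 37 genes were called higher with KPC, the KPC median was 0.31 and the median difference 0.08. The median difference was also low without KPP control replicate 2 (0.10), Matrigel control replicate 1 (0.16) or KPP tumour replicate 2 (0.20). The KPP median ran from -0.02 without KPP tumour replicate 1 to 0.30 without KPP control replicate 2. Without KPC tumour replicate 2 the KPC calls of Ucp3 and Angptl4 were lost as well. The number higher with KPC was 11 without Matrigel control replicate 1, and the number lower with KPP 1 without KPP control replicate 1. Phka1, a regulatory subunit of phosphorylase kinase, fell with KPP (-2.24 ± 0.32) against -0.63 ± 0.31 with KPC, which was not called, a difference of 1.61 ± 0.44 (adjusted p = 0.126). Gpt2, the mitochondrial alanine transaminase, rose with KPC (1.05 ± 0.22) against -0.51 ± 0.22 with KPP, a difference of 1.57 ± 0.31 (adjusted p = 0.0699), and lost its KPC call without Matrigel control replicate 2 (0.0648).

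Of 22 clock genes 9 rose and 5 fell with KPC (median 0.48), and 8 rose and 6 fell with KPP (median 0.16), with 7 higher and 4 lower in both. Without KPP tumour replicate 2 the number higher with KPP was 5, and without KPC tumour replicate 2 the KPC median was 0.26. The KPP median ran from 0.08 without KPP control replicate 2 to 0.36 without KPP control replicate 1. Dbp, a clock output factor, had 4.66 and 5.22 CPM in KPC tumour libraries against 136 and 136 CPM in Matrigel controls, and 9.33 and 3.94 CPM in KPP tumour libraries against 126 and 123 CPM in KPP controls, with no overlap in either model. Nr1d1, the clock repressor REV-ERBα, fell with KPP (-1.44 ± 0.28) against 0.59 ± 0.27 with KPC, which was not called, a difference of 2.02 ± 0.39 (adjusted p = 0.0699 by edgeR, 0.00072 by DESeq2). The hour at which muscles were taken was not given in the sources used here, and its part in these values was not tested. Of 27 calcium handling genes 2 rose and 9 fell with KPC (median -0.14), and 5 rose and 11 fell with KPP (median -0.42). Their differences were mixed, 15 positive and 12 negative (median 0.17). Cacng1 had 16361 and 27496 unscaled counts in KPP tumour libraries against 4369 and 4484 in KPP controls. With KPC it had 12381 and 6575 against 6425 and 4801 in Matrigel controls. In calcium handling, Jph2, the junctophilin that ties membrane tubules to the calcium store, fell by 0.98 ± 0.26 with KPC and by 2.47 ± 0.27 with KPP, a difference of 1.48 ± 0.36 (adjusted p = 0.100), its KPC call being lost without KPC tumour replicate 2 or Matrigel control replicate 1 (up to 0.0871).

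Erythroid markers rose with KPC in 8 of 10 cases (median 2.79), and with KPP 0 rose and 1 fell (median 1.04). The summed level was 2154 and 2370 CPM in KPC tumour libraries against 455 and 500 CPM in Matrigel controls, and 3250 and 489.5 CPM in KPP tumour libraries against 505 and 998 CPM in KPP controls. Only 1 of the 2 KPP tumour libraries was high, and without its partner, KPP tumour replicate 2, 5 markers were called higher with KPP and the KPP median was 1.80. Without KPP tumour replicate 1 the KPP median turned to -0.66, and without KPP control replicate 2 it was 1.90. With KPC the count was 2 without either Matrigel control and 3 without KPC tumour replicate 2. Of 12 listed markers Ahsp was at 0 in all 8 libraries. Slc4a1, the anion exchanger of red cells, had 4.96 and 6.11 CPM in KPC tumour libraries and 0.0648 and 0.102 CPM in Matrigel controls, and 0.537 and 0.0909 CPM in KPP tumour libraries against 0.0707 and 0.400 CPM in KPP controls. The Matrigel values rest on 2 and 3 counts, so the size of its fitted rise with KPC (5.98 ± 0.88) depends on the prior count. With KPP it was not called (0.44 ± 0.92), and the difference was not called either (adjusted p = 0.0962). The 20 macrophage markers had medians of 0.34 with KPC and 0.29 with KPP, with 2 higher and 1 lower called with KPC, and 1 higher and 2 lower with KPP. These medians changed sign with 1 library left out, to -0.04 with KPC without KPC tumour replicate 2, to -0.08 with KPC without Matrigel control replicate 2 and to -0.03 with KPP without KPP control replicate 2.

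The 47 gene lists were chosen with earlier results of these data known. Across them the medians had the same sign in both models for 39 lists and opposite signs for 8. The median difference was positive in 41 of 47, but in 19 of the 47 it changed sign with some library left out, and 1 list, the adipocyte markers, held a gene called by edgeR. No family of genes sharing a symbol stem had 3 or more members called in 1 direction by edgeR. DESeq2 gave 3 or more in 10 stems. Called higher were 3 of 41 Col, 3 of 14 Klf, 3 of 19 Sema, 6 of 233 Slc, 5 of 148 Fam and 3 of 68 Rnf genes, against 1.67% of all genes. Called lower were 4 of 49 Rpl, 3 of 44 Rps, 5 of 352 Zfp and 3 of 188 Tmem genes, against 0.826% of all genes. The 19 tested Sema genes, which encode semaphorin guidance proteins, had a median difference of 1.15 and the 14 Klf genes, transcription factors of the Krüppel type, one of 0.56.

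**Figure D5:**
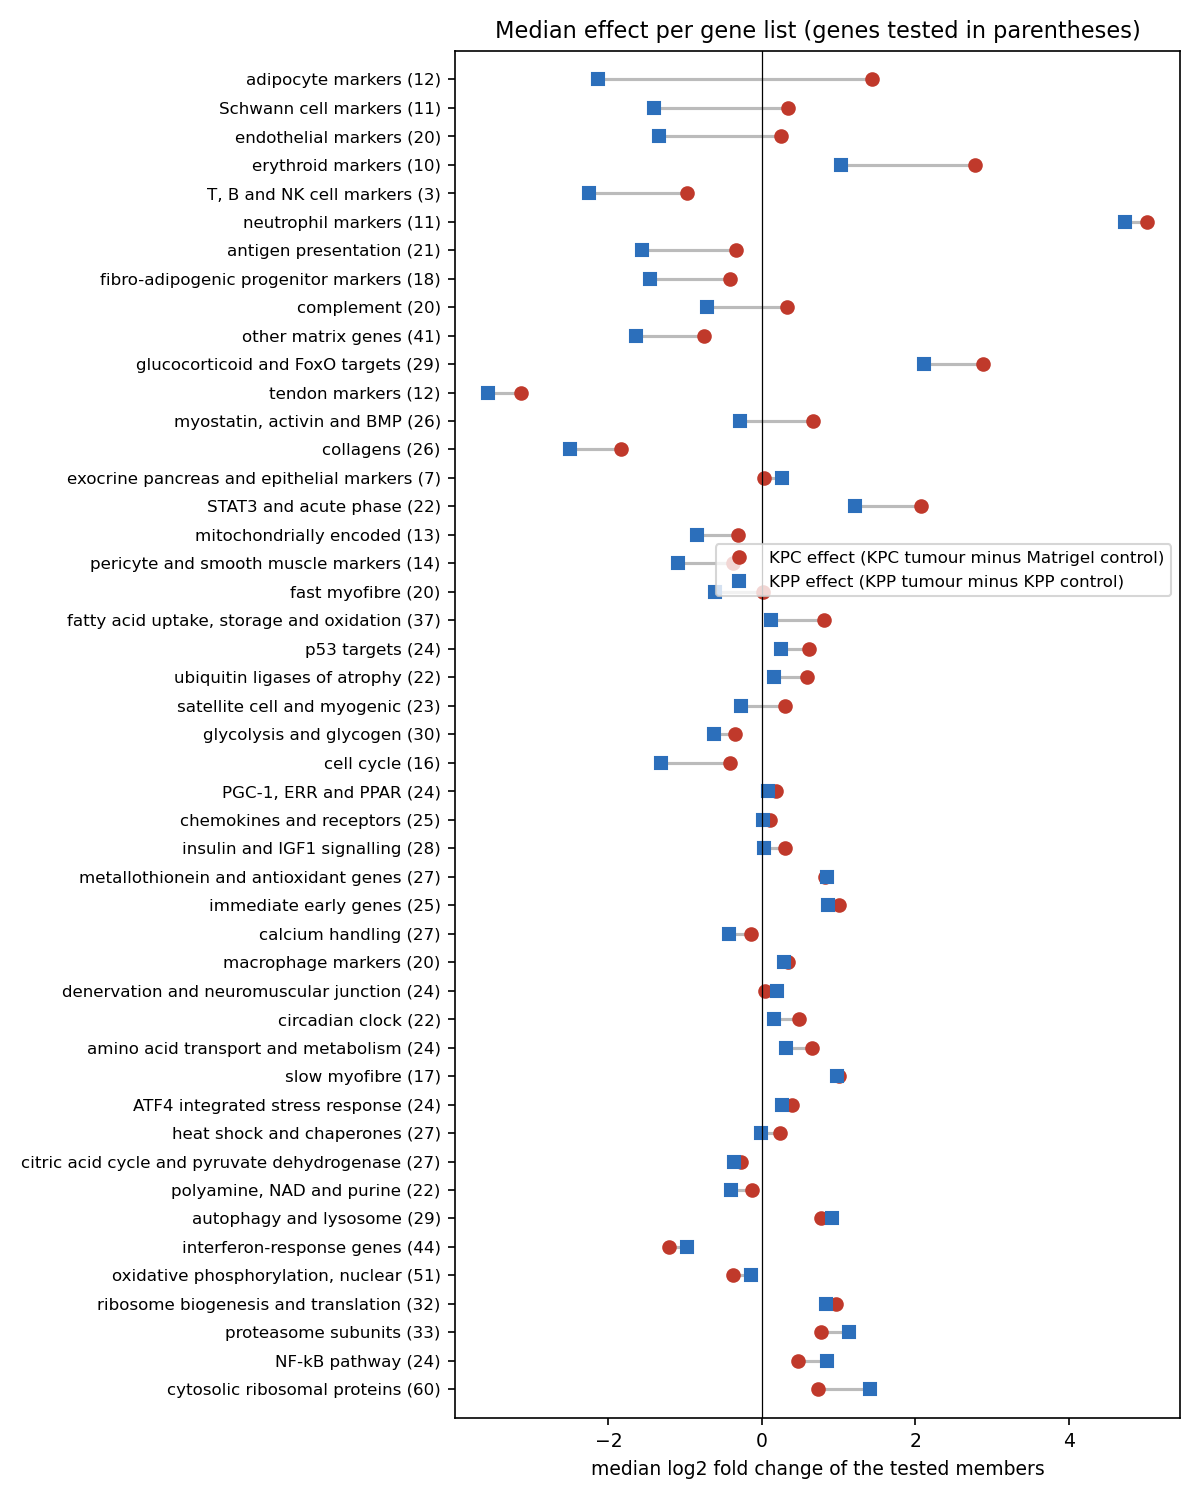
Median log2 KPC effect (red circles) and KPP effect (blue squares) over the tested members of 47 gene lists, ordered by the median difference of effects, with the number of genes tested in parentheses. The adipocyte list at the top lies at 1.44 with KPC and -2.14 with KPP, and the ribosomal protein list at the bottom lies at 0.73 with KPC and 1.41 with KPP.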

How the data were processed

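The submitters' processing notes name bcl2fastq 2.20, FastQC, Salmon, DESeq2 and build mm10, and the labels' protocols name a directional kit and poly(A) selection. The authors deposited, per transcript, Salmon's estimated counts, TPM and effective length, and per comparison a table of log2 fold changes with p-values. The strand setting of the counting, and any batch or date, were not given in the sources used here. Antisense and overlapping genes are therefore uncertain, as are near-identical copies, among which reads were divided.

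Estimated counts were summed per gene over the transcripts matched to GENCODE (139958 of 140825, the rest holding 0.412 to 0.685% of fragments) and rounded to whole numbers. edgeR 4.0.16 (R 4.3.3) kept 16096 of 29456 genes with filterByExpr, scaled by TMM and fitted 1 quasi-likelihood model to 18 libraries in 9 groups, with Benjamini-Hochberg adjustment over all genes at 0.05. CPM use TMM library sizes. Fits were tested on simulated data, drawn from the fitted spread with genes changed only in the KPC tumour group. Such counts cannot show how single libraries move the calls. No label ties replicates to separate litters or days, and p-values measure the spread between these libraries.

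Named genes were the 12 largest in each direction and the 10 smallest-p called differences, with a group mean of at least 5 CPM and no overlap of the tumour-control pairs, the 10 genes higher and the 10 lower in both with the largest smaller effect, up to 12 called in opposite directions, a panel of 20 atrophy genes, up to 4 smallest-p genes per list and families with 3 calls. Members and lists were chosen with earlier results of these data known. Alternatives were DESeq2 1.42.0, other size factors, no filter, the 8 libraries alone, length-scaled counts, a fold threshold of 1.5, a replicate block and leaving out each library. Promoters are RefSeq's (GRCm38.p6), 250 bases before to 50 after the start. Results of some genes are not reported here.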

Additional observations from a re-analysis of the deposited data

Results flagged for a closer look

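Of the 16096 genes tested, 6 had a difference between the KPC and KPP effects that passed the test of the difference itself (edgeR, adjusted p under 0.05, 2 libraries per group). On the log2 scale the difference was 4.27 for Cdo1, 3.76 for Ptger4, 6.30 for Cyp2e1, 1.65 for Cdc42ep3, 1.49 for Slc37a4 and 6.36 for Adipoq. In each of the 6, every difference between a KPC tumour and a Matrigel control library lay above every difference between a KPP tumour and a KPP control library. The 6 were selected by a test on these same libraries, so this separation is no separate evidence.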

How the results depend on the processing

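The number of genes whose effects differed, 6 as reported, was 3 with size factors by relative log expression, 401 with DESeq2, 1053 without a filter on low counts, 0 from the 8 libraries alone, 13 with length-scaled counts and 3 with a fold threshold of 1.5, and it ranged from 0 to 858 with 1 library left out. Against 4678 KPC calls there were 2834 from the 8 libraries alone, 1717 past the fold threshold and 1925 to 5132 with 1 library left out. Against 5912 KPP calls there were 2956 past the fold threshold and 3193 to 6344 with 1 left out. Calls in both moved to 1799, 947 and 1443 to 2714 in the same 3 settings, against 2963. Calls in opposite directions, 32 as reported, were 102 without the filter, 13 from the 8 libraries, 5 past the fold threshold and 7 to 99 with 1 left out. Between the controls, 0 as reported, there were 55 calls with DESeq2, 467 without the filter and 0 to 114 with 1 left out. Between the tumour groups, 2352 as reported, there were 414 from the 8 libraries, 269 past the fold threshold and 122 to 3412 with 1 left out. The causes were not tested.

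With the replicate number as a block the differences called were 2, of which 1 was among the 6, and the tumour groups differed in 13 genes. The numbers did not pair the libraries, whose deviations correlated at -0.052 (KPC) and -0.172 (KPP). A block with the KPP numbers crossed, chosen after seeing the data, gave 12 differences, 11 genes between the controls and 326 between the tumour groups.

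Of 33 genes recomputed in every setting, leaving out 1 library turned the sign of the difference in 6, none of them called. The differences ran from -0.36 to 0.58 for Cebpd, -2.17 to 2.32 for Socs3, -0.87 to 0.19 for Eda2r, -3.10 to 0.52 for Ppargc1a, -2.36 to 0.34 for Col1a1 and -1.07 to 0.16 for Dbp. Without KPC tumour replicate 2 the median over all genes moved by -0.109. With 2 libraries per group, precision is limited for genes near 1 CPM.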
